A study of Arabidopsis thaliana with 59 samples.

Results

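The genes described here encode the nuclear part of photosynthetic carbon fixation and of photorespiration in Arabidopsis thaliana. They were chosen by locus name for their place in these pathways. The rule uses no measured value, but the choice was made with earlier results of these data known. All 35 are in the authors' deposited table, which holds values for 32375 genes. They comprise 4 Rubisco small subunit genes, 3 genes of Rubisco activase and the chaperonin, 6 genes of the reduction phase of the Calvin cycle, 8 genes of its regeneration phase, 2 carbonic anhydrase genes and 12 photorespiration genes.

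Small RNA came from aerial parts of 20-day-old plants kept 6 days on MS medium and then 14 days on soil. There were 59 libraries of 15 genotypes, 3 of ski2-2 dcl4-2 ago1-27 and 4 of each other genotype. Each of the decay mutations ein5-1 and ski2-2 was studied alone, together with dcl4-2, together with dcl2-1, in the triple mutant with both Dicer mutations, and in the dcl4-2 double mutant carrying in addition ago1-45 or ago1-27. The remaining lines were the single mutants dcl4-2 and dcl2-1 and the wild type Col-0, which carries none of these alleles. The mutations are present in every cell of the plant, and the material was whole aerial tissue. In such bulk samples, fewer cells of a type and less RNA per cell cannot be told apart.

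Rubisco joins carbon dioxide to ribulose bisphosphate, and its small subunits are made from nuclear genes and assembled in the chloroplast with chaperonin help. The Calvin cycle then reduces the product to triose phosphate and rebuilds the acceptor, while photorespiration salvages the phosphoglycolate that forms when Rubisco takes up oxygen. These mRNAs are among the most abundant in green leaves. EIN5 (XRN4) degrades mRNA from the 5′ end and SKI2 is the helicase that feeds mRNA to the exosome at the 3′ end. DCL4 and DCL2 are Dicer-like enzymes making 21-nt and 22-nt siRNAs from double-stranded RNA, and AGO1 is the effector of most microRNAs and siRNAs. A 22-nt read over a gene can be such an siRNA or another fragment of its mRNA, and the table does not separate them or give strand.

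Closely related members share stretches from which a 22-nt read cannot be assigned to 1 gene, and these sequences are shown because they decide how far the members count as separate measurements. In RefSeq's TAIR10.1 assembly, 42.5% of the 22-base words in the exons of RBCS2B occur elsewhere in the genome, as do 27.8% for RBCS3B, 21.2% for RBCS1B and 8.30% for RBCS1A. Below are 88 coding bases of each gene on the minus strand, from chr5:15384448-15384535 (RBCS1B), chr5:15381301-15381388 (RBCS2B), chr5:15377599-15377686 (RBCS3B) and chr1:25048560-25048647 (RBCS1A). Capitals mark the 4 bases at which RBCS1A differs from the other 3 genes, which are identical to each other here.
RBCS1B: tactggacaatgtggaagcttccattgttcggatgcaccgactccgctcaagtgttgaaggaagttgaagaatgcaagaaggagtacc
RBCS2B: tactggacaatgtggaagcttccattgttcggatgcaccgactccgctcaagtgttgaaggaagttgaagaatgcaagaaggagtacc
RBCS3B: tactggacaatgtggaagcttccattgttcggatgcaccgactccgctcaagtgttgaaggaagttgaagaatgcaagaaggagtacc
RBCS1A: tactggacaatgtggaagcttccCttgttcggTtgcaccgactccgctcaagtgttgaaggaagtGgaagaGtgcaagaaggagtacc

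The glycolate oxidase genes GOX1 and GOX2, which lie side by side on chromosome 3, are a second such pair. Of their 22-base words, 10.05% (GOX1) and 11.2% (GOX2) occur elsewhere. The following 88 coding bases on the plus strand, from chr3:4823526-4823613 (GOX1) and chr3:4820379-4820466 (GOX2), differ at 3 bases, given in capitals in GOX2.
GOX1: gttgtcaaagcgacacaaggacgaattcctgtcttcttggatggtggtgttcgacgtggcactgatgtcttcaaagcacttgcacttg
GOX2: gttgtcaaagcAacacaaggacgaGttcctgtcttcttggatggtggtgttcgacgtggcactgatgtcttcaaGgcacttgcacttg

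The phosphoglycolate phosphatase gene PGLP1 (AT5G36700) is an extreme case. All of its 1907 exonic 22-base words occur elsewhere in the genome, and its copy AT5G36790 was listed with the same mean in 14 of the 15 genotypes, so the table does not separate these copies. Reads in shared stretches of the Rubisco small subunit genes may likewise stand under several of them, and their values are not 4 independent measurements. For 24 of the 35 members under 5% of the words were repeated.

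Values are given in the authors' scaled units, which the file headers call TPM and which are not corrected for gene length. Genes are therefore compared with each other per kb of exon, and genotypes gene by gene. Values of single libraries, called A to D, were worked out from the deposited means wherever the mean could be split into whole reads in 1 way only. One read was worth 0.330 to 4.74 units, and each library held 22454 to 298481 recovered reads. The highest means cannot be split, so that 26 members had library values in Col-0 and 21 (ski2-2 dcl4-2 dcl2-1) to 35 (the ein5-1 dcl4-2 lines with an ago1 allele and the ski2-2 dcl4-2 lines with an ago1 allele) in the mutants. A change counted as called at an adjusted p below 0.05. Shares of all genes were counted on adjusted p-values only, so counts of members at an unadjusted p stand without such a share.

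In wild-type plants the members were well-covered genes. Their authors' means in Col-0 ranged from 6.77 units for TPI to 520 units for RCA, while the median gene of the table had 0.463 units. Per kb of exon, RBCS1A (AT1G67090) had the highest level in Col-0 with 343 units, followed by RBCS3B (AT5G38410) with 291 units, RCA (AT2G39730, Rubisco activase) with 248 units, RBCS2B (AT5G38420) with 187 units, RBCS1B (AT5G38430) with 145 units and FBA2 (AT4G38970, plastid aldolase) with 123 units. GAPB, a subunit of the chloroplast glyceraldehyde phosphate dehydrogenase, came next with 57.2 units per kb. At the low end stood GLYK (glycerate kinase) with 3.86 units and TPI (plastid triose phosphate isomerase) with 4.44 units per kb.

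Summed over the 35 genes, the authors' means differed several-fold between genotypes. The sum was lowest in ski2-2 dcl4-2 ago1-27 with 826 units and in ein5-1 dcl4-2 with 982 units, and highest in ski2-2 dcl4-2 dcl2-1 with 6231 units, against 3495 units in Col-0. The remaining sums were 1538 units in dcl2-1, 1557 units in ein5-1, 1911 units in ski2-2 dcl2-1, 2053 units in ein5-1 dcl4-2 ago1-27, 2176 units in ein5-1 dcl2-1, 2295 units in ski2-2 dcl4-2, 2757 units in ein5-1 dcl4-2 dcl2-1, 2810 units in ski2-2 dcl4-2 ago1-45, 3022 units in ski2-2, 3165 units in ein5-1 dcl4-2 ago1-45 and 3583 units in dcl4-2. All 35 members were below Col-0 in ein5-1 and in ski2-2 dcl4-2 ago1-27, 34 in dcl2-1 and 2 in ski2-2 dcl4-2 dcl2-1. As a share of the 22-nt signal of all genes, the members made up 0.0515% in ein5-1 dcl4-2 and 0.237% in ski2-2 dcl4-2, against 1.92% in Col-0. That total is itself much larger in the double mutants, at 1906264 units in ein5-1 dcl4-2 and 967422 units in ski2-2 dcl4-2, against 181889 units in Col-0. Over the genes with at least 5 units in Col-0, the median ratio to Col-0 stood at 0.974 for ein5-1 dcl4-2. It was 0.886 for ski2-2 dcl4-2, while the members' own median ratios were 0.354 and 0.385 in the same order.

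**Figure D1:**
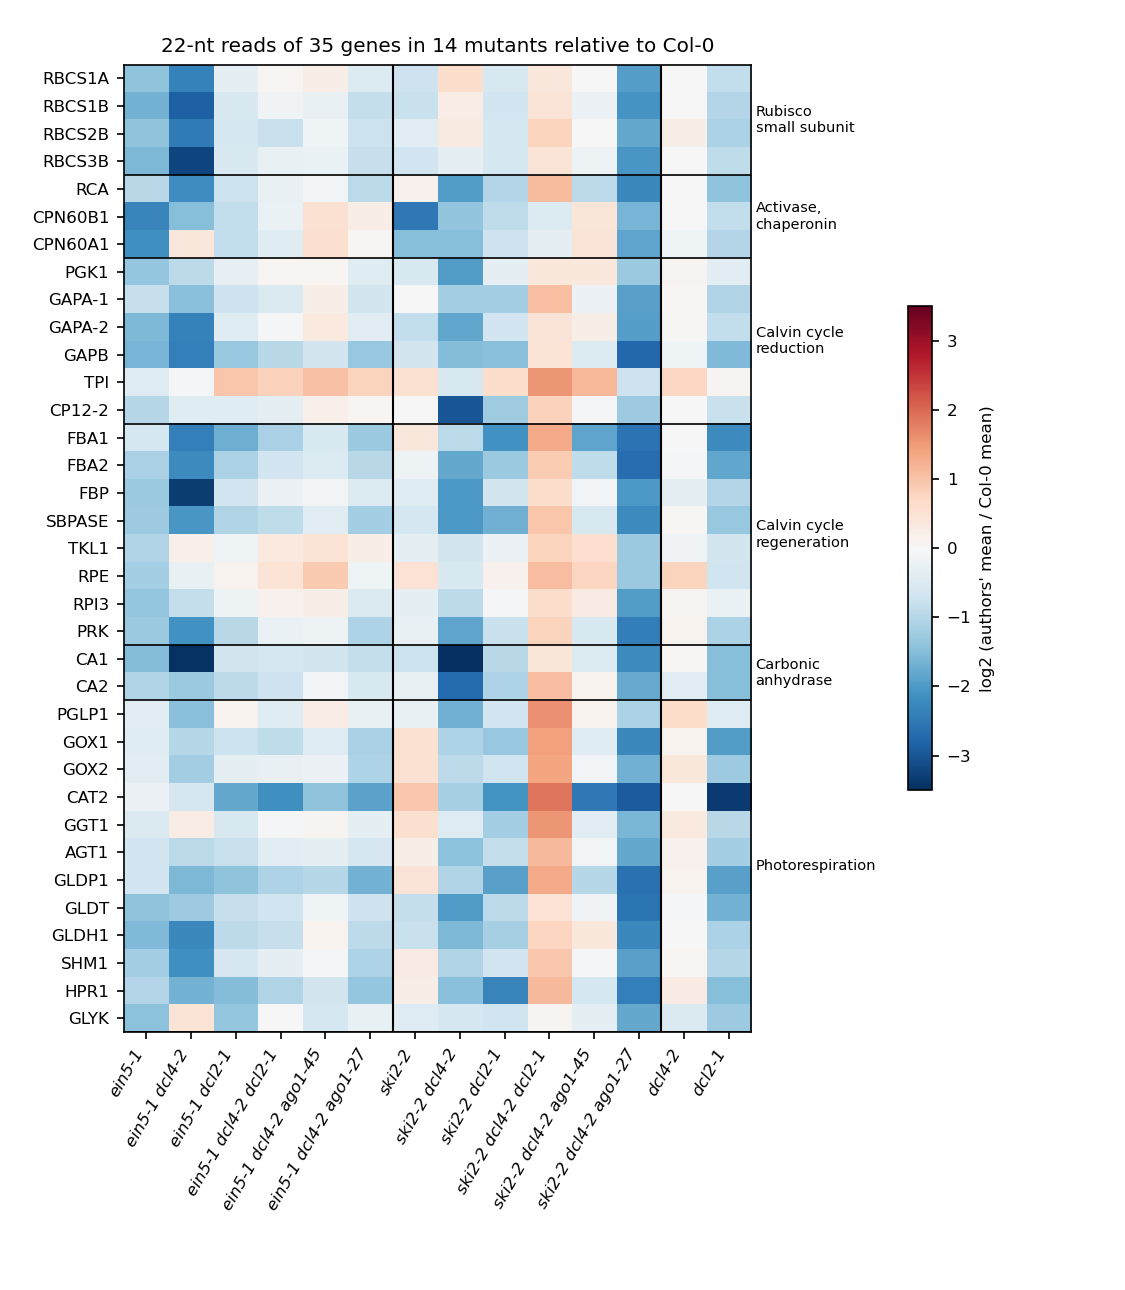
Log2 ratio of the authors' mean in each of 14 mutants to the Col-0 mean (colour) for the 35 genes in rows, ordered by role, with the ein5-1 lines left, the ski2-2 lines in the middle and dcl4-2 and dcl2-1 right. The columns of ein5-1, ein5-1 dcl4-2, ski2-2 dcl4-2 ago1-27 and dcl2-1 are mostly blue (35, 31, 35 and 34 members below Col-0), as are those of ein5-1 dcl2-1, ski2-2 dcl4-2 and ski2-2 dcl2-1 (32, 32 and 33 members), and the column of ski2-2 dcl4-2 dcl2-1 is mostly red (above Col-0).

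The decay mutant ein5-1, with both Dicer-like enzymes present, already had fewer 22-nt reads of these genes than Col-0. Of 24 members with library values in both genotypes and enough reads, 20 fell, 0 rose (0 also at an unadjusted p below 0.05) and 4 did not pass limma's test, with a median log2 fold of -1.13. Among all 12024 genes tested, 573 (4.77%) were lower and 1018 were higher, and the median was 0.05. Among the members tested, the genes of 2 chaperonin subunits that fold Rubisco fell most on the log2 scale. CPN60B1 (AT1G55490) had 4.94, 4.09, 4.31 and 5.14 units in ein5-1 libraries, against 25.2, 25.5, 19.5 and 21.8 units in Col-0 libraries. Every ein5-1 library lay below every Col-0 library, and the log2 fold was -2.09 ± 0.29 (SE, adjusted p = 2.56e-09). CPN60A1 (AT2G28000), the partner subunit, had 5.43, 8.18, 6.46 and 9.13 units in ein5-1, against 23.6, 26.4, 33.8 and 45.7 units in Col-0. Its log2 fold was -1.98 ± 0.26 (SE, adjusted p = 7.71e-11), again without overlap of the libraries. The next largest falls on the log2 scale were those of GAPA-2 (AT1G12900, glyceraldehyde phosphate dehydrogenase subunit; -1.58 ± 0.17, SE), GLDT (AT1G11860, T protein of glycine decarboxylase; -1.38 ± 0.19, SE) and PGK1 (AT3G12780, phosphoglycerate kinase; -1.33 ± 0.17, SE). PGK1 had 17.8, 22.5, 24.2 and 21.7 units in ein5-1 libraries, against 55.3, 54.7, 51.2 and 60.3 units in Col-0 libraries. The 4 members that did not pass were GOX1, GOX2, PGLP1 and TPI, with log2 folds of -0.40, -0.27, -0.32 and -0.40. GRP7, a clock-regulated RNA-binding protein gene, had 68.8 units in ein5-1 and 1.88 units in Col-0. The summed authors' mean of 6 evening-phased clock genes (TOC1, GI, PRR5, ELF4, LUX and FKF1) was 4.78 units in ein5-1 and 1.199 units in Col-0, and that of the morning genes CCA1 and LHY was 18.6 and 9.38 units in the same order. Of the 6 evening genes, 4 were at 0 units in Col-0, so their Col-0 sum rests on few reads. GRP7 and the clock genes were chosen after their values were seen, and their part in the members' differences was not tested.

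Rubisco genes were too high in Col-0 for library values and are given as authors' means. RBCS1A had 162 units in ein5-1 and 435 units in Col-0, RBCS3B had 139 and 411 units, and RCA had 266 and 520 units in the same order. No test applies to these means.

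The other decay mutant, ski2-2, differed from Col-0 in few members. Of 24 tested, 4 fell, against 0.776% of 11980 genes, and 1 rose, against 0.893% of those genes. The median log2 fold of the members was -0.26. CPN60B1 had 4.11, 8.75, 2.28 and 1.21 units in ski2-2 libraries, against 25.2, 25.5, 19.5 and 21.8 units in Col-0 libraries, a log2 fold of -2.45 ± 0.37 (SE, adjusted p = 5.34e-08). For CPN60A1 the values were 6.16, 17.5, 10.3 and 12.1 units in ski2-2, against 23.6, 26.4, 33.8 and 45.7 units in Col-0 (log2 fold -1.45 ± 0.28, SE, adjusted p = 8.23e-05). Both chaperonin genes were thus below every Col-0 library in ein5-1 and in ski2-2. GAPA-2 fell by 0.86 ± 0.18 and GLDT by 0.82 ± 0.21 on the log2 scale (SE). GOX1 rose by 0.55 ± 0.16 (SE, adjusted p = 0.041), with 63.7, 79.9, 78.6 and 82.1 units in ski2-2, against 48.0, 41.5, 49.1 and 71.7 units in Col-0. Its libraries overlap, and the call was lost with a pseudocount of 0.1, without the filter on low values, after scaling to microRNA loci, and on leaving out Col-0 library A, B or C or ski2-2 library B or C.

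Set directly against each other, ein5-1 had fewer reads than ski2-2 over many members. Of 26 tested, 16 were lower in ein5-1, against 2.73% of 12142 genes, and 0 were higher, 0 also at an unadjusted p below 0.05. Of those 12142 genes, 331 were lower and 675 were higher. After scaling to microRNA loci the count of lower members was 10. The largest differences in log2 were those of RPE (AT5G61410, ribulose phosphate epimerase; -1.57 ± 0.29, SE) and SHM1 (AT4G37930, serine hydroxymethyltransferase; -1.43 ± 0.17, SE). RPE had 8.89, 4.600, 6.997 and 7.42 units in ein5-1 libraries, against 25.7, 18.6, 25.1 and 20.5 units in ski2-2 libraries, with no overlap.

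**Figure D2:**
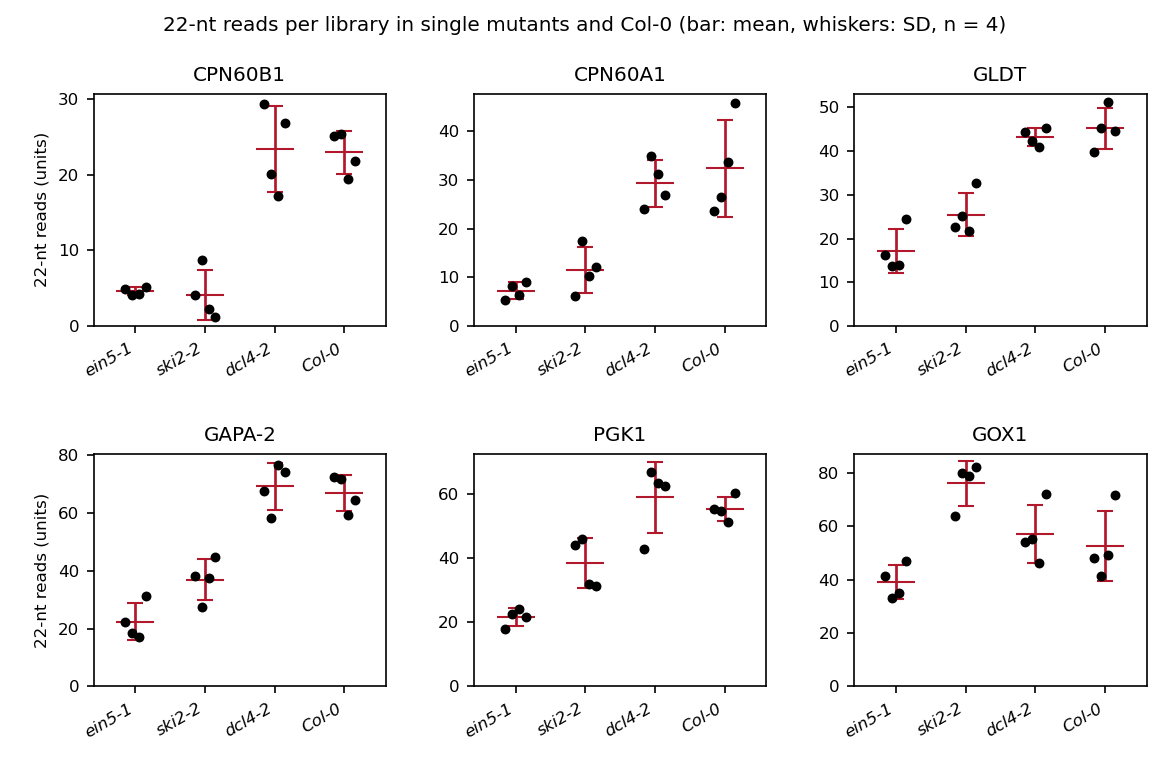
Units per library (points) with the mean and SD (n = 4) of 6 members in ein5-1, ski2-2, dcl4-2 and Col-0. For CPN60B1 and CPN60A1, the ein5-1 and ski2-2 points lie below all Col-0 points, while the dcl4-2 points lie at the Col-0 level; GOX1 is highest in ski2-2.

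Loss of DCL4 alone gave no called member. Of 22 tested in dcl4-2 against Col-0, 0 were higher and 0 lower at an adjusted p below 0.05. Among 11766 genes, 159 (1.35%) were lower and 163 were higher. At an unadjusted p below 0.05, 3 members were higher (RPE, PGLP1 and GOX2) and 0 lower, and the members' median log2 fold was 0.05. The share of all genes at that unadjusted threshold was not counted, so these 3 are not read as a result. After scaling to microRNA loci this split turned round, with 0 higher and 7 lower at an unadjusted p below 0.05, 1 lower after adjustment and a median of -0.28. That scaling put the median of all genes tested at -0.27, so the members moved with the genes as a whole. GLDT, for example, had 44.4, 42.4, 40.9 and 45.2 units in dcl4-2, against 39.8, 45.3, 51.2 and 44.7 units in Col-0. The largest folds were those of RPE (0.71) and TPI (0.68) upwards and GLYK (-0.49) downwards, and with the number of reads available a change of this size may go uncalled.

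Loss of DCL2 alone was different. In dcl2-1 against Col-0, 19 of 26 members fell and 0 rose (0 also at an unadjusted p below 0.05), and the members' median log2 fold was -1.03. Among all 11445 genes tested, 402 (3.51%) were lower and 417 were higher. CAT2 (AT4G35090), the catalase that removes photorespiratory hydrogen peroxide, had 10.7, 6.26, 8.78 and 9.03 units in dcl2-1, against 83.8, 96.2, 71.7 and 104 units in Col-0. That is a log2 fold of -3.22 ± 0.22 (SE, adjusted p = 4.21e-44). FBA1 (AT2G21330), a plastid aldolase, had 17.8, 23.2, 22.6 and 20.6 units in dcl2-1 and 104, 93.4, 77.8 and 117 units in Col-0 (log2 fold -2.16 ± 0.18, SE, adjusted p = 2.74e-31). Neither gene's libraries overlap between the genotypes. GOX1 followed with -1.86 ± 0.23 (SE). Clock genes also differed between these genotypes. The evening genes summed to 10.2 units in dcl2-1 and 1.199 units in Col-0, and the morning genes summed to 0.322 units in dcl2-1 and 9.38 units in Col-0. In Col-0 4 of the 6 evening genes were at 0 units, and in dcl2-1 1 of the 2 morning genes was. The low sums thus rest on few reads. GRP7 had 77.8 units in dcl2-1 and 1.88 units in Col-0, and the part of these genes was not tested.

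In the double mutants the loss of DCL4 is added to the decay defect, and the question is whether genes turn into sources of 22-nt siRNA. For ein5-1 dcl4-2 against Col-0, the authors' deposited table gave 28 of the 35 members as lower, 0 as higher and 7 as not called. Over the 20929 genes tested, 4.44% were lower, and 4418 genes were higher. The members' median log2 fold was -1.73, while the median over all genes was 1.05. Most of those genes had under 5 units in Col-0, while every member had at least 6.77 units. Among genes with at least 5 units in Col-0, the median ratio to Col-0 was 0.974, against 0.354 for the members. Centring on the median of all genes left the count at 28, but it kept the authors' calls and could not lower that count.

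All 4 Rubisco small subunit genes fell in ein5-1 dcl4-2. RBCS3B had 44.6, 44.7, 38.1 and 51.6 units in ein5-1 dcl4-2 libraries, and its authors' mean for Col-0 was 411 units. RBCS1A had 89.2, 98.9, 74.5 and 72.8 units in ein5-1 dcl4-2, and its authors' mean for Col-0 was 435 units. In the authors' deposited table the log2 folds were -3.48 for RBCS3B (adjusted p = 1.84e-73), -3.14 for RBCS1B, -2.79 for RBCS2B and -2.61 for RBCS1A. RCA, with 115 units in ein5-1 dcl4-2 and 520 units in Col-0, had a log2 fold of -2.45 in the same table.

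The largest fall was that of CA1 (AT3G01500), the main plastid carbonic anhydrase, with 16.4, 9.57, 5.45 and 18.2 units in ein5-1 dcl4-2; the authors' mean for Col-0 was 137 units. These units are 11, 6, 3 and 6 reads. Its log2 fold in the authors' deposited table was -3.76 (adjusted p = 5.79e-33). FBP (AT3G54050), the plastid fructose bisphosphatase, had 1.49, 4.78, 3.63 and 6.07 units in ein5-1 dcl4-2, against 50.4, 32.1, 30.7 and 45.7 units in Col-0. The libraries do not overlap, and the authors' deposited table gave a log2 fold of -3.62 (adjusted p = 2.74e-10). In the regeneration phase 6 of 8 genes fell, in the reduction phase 4 of 6, in photorespiration 10 of 12, and both carbonic anhydrase genes fell.

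The 7 members not called in ein5-1 dcl4-2 were CPN60A1, CP12-2, TPI, TKL1, RPE, GGT1 and GLYK. Their authors' log2 folds, from the authors' deposited table, ranged from -0.71 for CP12-2, a regulator that ties phosphoribulokinase to glyceraldehyde phosphate dehydrogenase, to 0.25 for GLYK. TKL1 (AT3G60750), a plastid transketolase, had 119, 102, 70.8 and 63.7 units in ein5-1 dcl4-2, against 60.2, 90.5, 83.96 and 76.9 units in Col-0, and these overlap.

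Against ein5-1, the effect of the added dcl4-2 mutation was smaller. Of 35 members, 21 were lower in the double mutant (4.69% of 20929 genes) and 3 were higher (21.9% of those genes), by the authors' deposited table. The median log2 fold of the members was -0.93, against 1.04 for all genes tested. FBP (-2.33), CA1 (-2.27), FBA1 (-1.97), RBCS3B (-1.93) and RBCS1B (-1.51) had the largest falls in the authors' deposited table. CA1 had 16.4, 9.57, 5.45 and 18.2 units in ein5-1 dcl4-2, against 51.9, 49.6, 42.0 and 49.7 units in ein5-1. The remaining Rubisco genes fell by 1.21 (RBCS1A), 1.41 (RBCS2B) and 1.51 (RCA) on the log2 scale of the authors' deposited table.

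The 3 members that rose were CPN60A1, GLYK and TKL1. CPN60A1 had 35.7, 43.1, 50.9 and 39.4 units in ein5-1 dcl4-2, against 5.43, 8.18, 6.46 and 9.13 units in ein5-1. Its level in the double mutant was thus near that of Col-0, where the libraries held 23.6 to 45.7 units, and the authors' deposited table gave a log2 fold of 2.25 over ein5-1 (adjusted p = 2.36e-13). GLYK (AT1G80380) had 14.9, 14.4, 20.0 and 9.10 units in ein5-1 dcl4-2 and 2.47, 3.58, 3.77 and 5.71 units in ein5-1 (1.66 in the authors' deposited table). TKL1 rose by 1.01 in that comparison of the authors' deposited table, but centring on the median of all genes turned its fold to -0.03. Against dcl4-2, the authors' deposited table gave 29 of 35 members as lower in ein5-1 dcl4-2 (4.78% of 20929 genes), with a median log2 fold of -1.90. The comparisons with Col-0, ein5-1 and dcl4-2 share the ein5-1 dcl4-2 libraries. GRP7 stood at 361 units in ein5-1 dcl4-2, 68.8 units in ein5-1 and 1.88 units in Col-0. In the same order, the evening clock genes summed to 39.6, 4.78 and 1.199 units, and the morning genes to 34.6, 18.6 and 9.38 units. Their part in these results was not tested.

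In ski2-2 dcl4-2 the Rubisco small subunit genes separated from the rest. Against Col-0, the authors' deposited table gave 28 of 35 members as lower (7.74% of 12083 genes) and 1 as higher (8.13% of those genes), with a median log2 fold of -1.44 against 0.07 for all genes tested. The member that rose was RBCS1A, with authors' means of 667 units in ski2-2 dcl4-2 and 435 units in Col-0, and a log2 fold of 0.51 (adjusted p = 6.87e-08) in the authors' deposited table. RBCS1B had 327 units in ski2-2 dcl4-2 and 274 units in Col-0, and RBCS2B had 218 units in ski2-2 dcl4-2 and 175 units in Col-0. By the authors' deposited table, their log2 folds were 0.17 and 0.21 and did not pass. RBCS3B fell by 0.41 on the same scale. RCA, a gene of similar level in Col-0, fell by 2.12, with 134 units in ski2-2 dcl4-2 and 520 units in Col-0.

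CA1 again had the largest fall, with 7.77, 12.5, 7.30 and 9.48 units in ski2-2 dcl4-2; the authors' mean for Col-0 was 137 units. The log2 fold in the authors' deposited table was -3.92 (adjusted p = 2.25e-35). CP12-2 (AT3G62410) had 3.33, 2.78, 2.92 and 0 units in ski2-2 dcl4-2, against 13.8, 13.2, 25.6 and 18.7 units in Col-0, and CA2 (AT5G14740), a second carbonic anhydrase gene, had 5.55, 8.35, 2.92 and 0 units against 23.6, 30.2, 29.7 and 28.1 units in the same order. Neither gene's libraries overlap, and the log2 fold was -2.57 for CP12-2 and -2.43 for CA2 by the authors' deposited table. The library with 0 reads of both genes is the shallowest of all 59, where 1 read is worth 4.74 units. GLDT and RCA (both -2.12 in the authors' deposited table) complete the 5 largest falls. Outside the small subunit genes, 27 of 31 members fell, and TPI, RPE, RPI3 and GLYK did not pass. GRP7 had 32.5 units in ski2-2 dcl4-2 and 1.88 units in Col-0. In the same order, the evening clock genes summed to 11.1 and 1.199 units, and the morning genes to 15.04 and 9.38 units. The part of GRP7 and the clock genes was not tested.

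Against ski2-2, the authors' deposited table gave 24 of 35 members as lower in ski2-2 dcl4-2 (7.32% of 12581 genes) and 3 were higher (7.28% of those genes). All 3 are small subunit genes. RBCS1A had 667 units in ski2-2 dcl4-2 and 262 units in ski2-2 (log2 fold 1.26), RBCS1B 327 and 159 units (0.97) and RBCS2B 218 and 134 units (0.62), in the same order and by the authors' deposited table. RBCS3B, at 0.29, did not pass (adjusted p = 0.067). Falls were largest for CA1 (-3.14), CP12-2 (-2.57), RCA (-2.26), CAT2 (-2.25) and CA2 (-2.16) in the authors' deposited table. CA1 had 7.77, 12.5, 7.30 and 9.48 units in ski2-2 dcl4-2, against 82.2, 96.3, 70.6 and 73.6 units in ski2-2. Against dcl4-2, 30 of 35 members were lower (9.64% of 11087 genes) and RBCS1A alone was higher (10.4% of those genes) in the authors' deposited table.

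**Figure D3:**
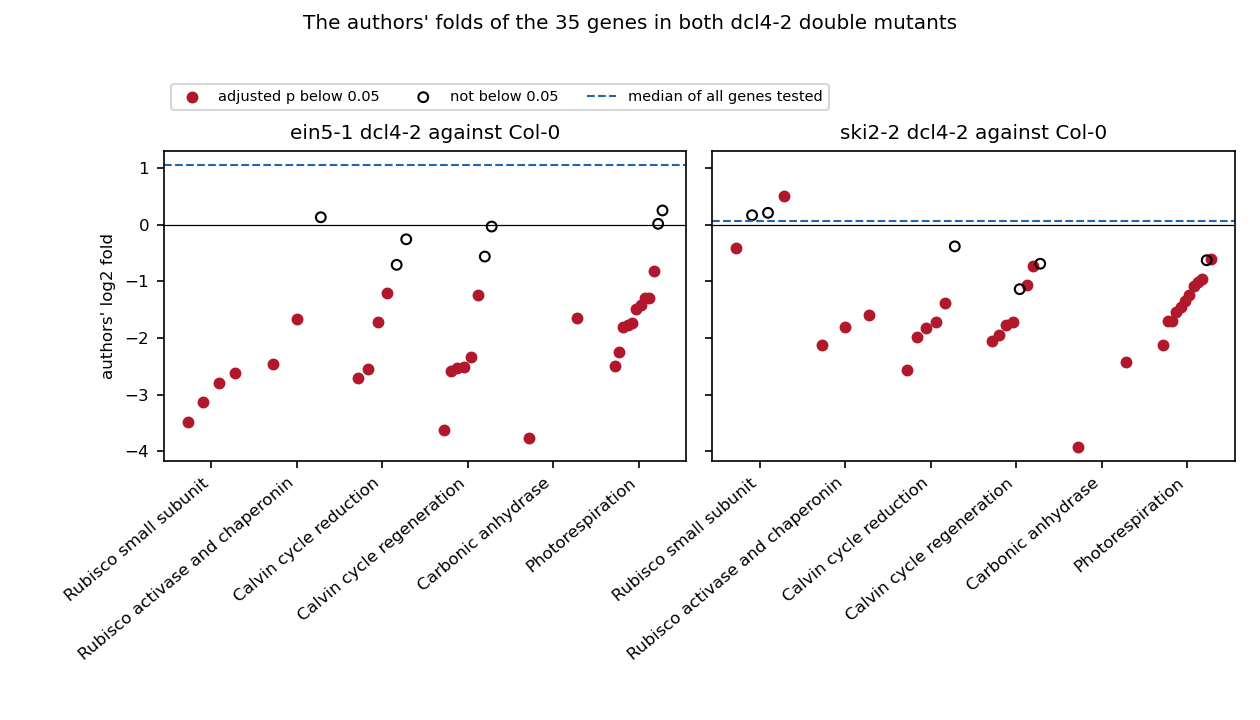
The authors' log2 fold of each of the 35 genes in ein5-1 dcl4-2 (left) and ski2-2 dcl4-2 (right) against Col-0, by role, with filled points at an adjusted p below 0.05 and the dashed line at the median of all genes tested. The 4 Rubisco small subunit genes lie between -3.48 and -2.61 on the left and between -0.41 and 0.51 on the right, and CA1 is the lowest point in both panels.

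The 2 double mutants were also compared directly, and the change upon loss of DCL4 was compared between the 2 backgrounds. For ein5-1 dcl4-2 against ski2-2 dcl4-2, limma called 5 of 30 members higher (20.3% of 17476 genes) and 1 lower (2% of those genes). The share of members called higher was thus no larger than that of all genes. The members' median log2 fold was 0.005, against 0.82 for all genes tested. CPN60A1, PGK1, CP12-2, TKL1 and GGT1 were higher in ein5-1 dcl4-2, and FBA1 was lower. With quantile normalization 2 were higher and 7 lower, and without ein5-1 dcl4-2 library A, B or C 2, 2 and 3 were higher. CPN60A1 had 35.7, 43.1, 50.9 and 39.4 units in ein5-1 dcl4-2, against 12.2, 12.5, 7.30 and 14.2 units in ski2-2 dcl4-2 (log2 fold 1.81 ± 0.33, SE, adjusted p = 0.00018). The small subunit genes had no library values in ski2-2 dcl4-2. Their authors' means were 83.8 units for RBCS1A, 37.5 units for RBCS1B, 31.7 units for RBCS2B and 44.7 units for RBCS3B in ein5-1 dcl4-2, against 667, 327, 218 and 331 units in ski2-2 dcl4-2, without a test.

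An interaction term over ein5-1 dcl4-2, ein5-1, ski2-2 dcl4-2 and ski2-2, chosen after the values were seen, was past the threshold for 9 of 26 members. In all 9 the log2 change upon loss of DCL4 was higher in the ein5-1 background. The share of all 15665 genes so called was 11.1%, and with quantile normalization 5 members passed. CP12-2 changed by 0.44 in log2 in the ein5-1 background and by -2.71 in the ski2-2 background, a difference of 3.16 ± 0.65 (SE, adjusted p = 0.0012). CPN60A1 changed by 2.39 in the ein5-1 background and by 0.05 in the ski2-2 background, a difference of 2.34 ± 0.49 (SE, adjusted p = 0.0015).

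**Figure D4:**
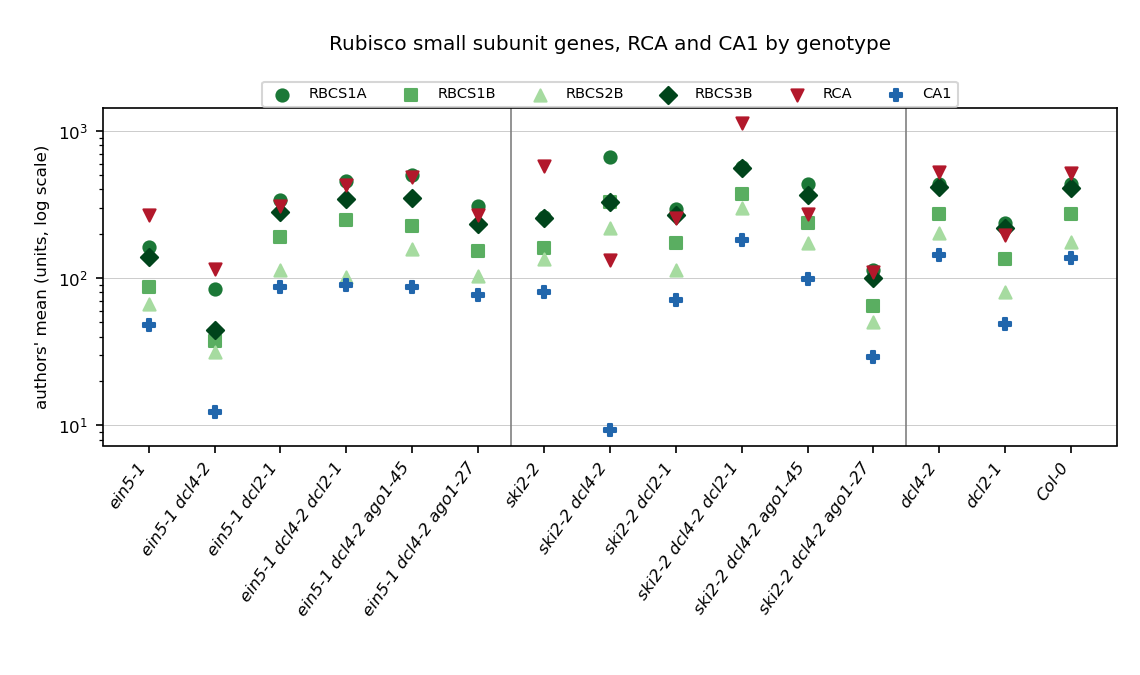
Authors' means in units (log axis) of the 4 Rubisco small subunit genes, RCA and CA1 in 15 genotypes, with ein5-1 lines left, ski2-2 lines in the middle and dcl4-2, dcl2-1 and Col-0 right. In ein5-1 dcl4-2 all 6 genes are low, while in ski2-2 dcl4-2 RBCS1A stands at 667 units with RCA at 134 and CA1 at 9.27 units.

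Upon loss of DCL2 in ein5-1 dcl4-2, most called members were higher, while most genes called over the whole table were lower. Among genes with at least 5 units in Col-0, however, the median ratio to Col-0 was 0.974 in ein5-1 dcl4-2 and 0.980 in ein5-1 dcl4-2 dcl2-1. The members' own median ratios were 0.354 and 0.790 in the same order. The authors' folds run double over triple mutant, so a negative fold means a higher value in the triple mutant. In ein5-1 dcl4-2 dcl2-1, 22 of 35 members were higher than in ein5-1 dcl4-2 (4.02% of 20410 genes), and 1 was lower (16.7% of those genes), by the authors' deposited table. FBP had 31.5, 33.7, 47.6 and 24.7 units in ein5-1 dcl4-2 dcl2-1, against 1.49, 4.78, 3.63 and 6.07 units in ein5-1 dcl4-2. The libraries do not overlap, and the authors' log2 fold was -3.36 in the authors' deposited table. RBCS3B had 345 units in the triple and 44.7 units in the double mutant, and CA1 had 89.1 and 12.4 units in the same order. The member that was lower is CAT2, with 19.7, 20.8, 15.9 and 24.7 units in ein5-1 dcl4-2 dcl2-1, against 60.98, 63.8, 65.4 and 45.5 units in ein5-1 dcl4-2.

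In ski2-2 dcl4-2 dcl2-1, 31 of 35 members were higher than in ski2-2 dcl4-2 (8.93% of 12581 genes) and 1 was lower (7.3% of those genes) in the authors' deposited table. CA1 had 182 units in the triple and 9.27 units in the double mutant, with an authors' log2 fold of -4.15, the largest difference of any member in the authors' deposited table. CP12-2 had 33.4, 38.4, 23.9 and 30.1 units in ski2-2 dcl4-2 dcl2-1, against 3.33, 2.78, 2.92 and 0 units in ski2-2 dcl4-2. RCA reached 1125 units in ski2-2 dcl4-2 dcl2-1, against 134 units in ski2-2 dcl4-2, and is the highest mean of any member in any genotype. RBCS1A, at 571 units in the triple and 667 units in the double mutant, was the member that was lower. Although it lacks both DCL2 and DCL4, ski2-2 dcl4-2 dcl2-1 was above Col-0 in 33 of 35 members, with a median ratio of 1.76. No comparison of this triple mutant with Col-0 was tested here. GRP7 had 4.13 units in ski2-2 dcl4-2 dcl2-1 and 32.5 units in ski2-2 dcl4-2. In the same order, the evening clock genes summed to 3.02 and 11.1 units, and the morning genes to 41.7 and 15.04 units. Of the 6 evening genes, 4 were at 0 units in ski2-2 dcl4-2 dcl2-1. The part of GRP7 and the clock genes in the difference was not tested.

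With DCL4 present, loss of DCL2 gave unlike results in the 2 decay mutants. In ein5-1 dcl2-1 against ein5-1, 10 of 26 members rose (7% of 13441 genes) and 0 fell. Of those 13441 genes, 941 rose and 443 fell. At an unadjusted p below 0.05 the member counts were 12 and 1. After scaling to 178 microRNA loci, which moved the median of all genes by -0.59, 0 rose and 6 fell, so that the direction depends on the scaling. CPN60B1 was among the 10 members that rose before this scaling, and its call was lost with it. Without that scaling it had 12.3, 14.2, 10.2 and 13.4 units in ein5-1 dcl2-1, against 4.94, 4.09, 4.31 and 5.14 units in ein5-1, with no overlap (limma log2 fold 1.26 ± 0.35, SE, adjusted p = 0.0051). In ski2-2 dcl2-1 against ski2-2, 10 of 26 members fell (3.68% of 11890 genes) and 1 rose (3.16% of those genes). HPR1 (AT1G68010), the peroxisomal hydroxypyruvate reductase, had 9.22, 6.94, 8.98 and 5.75 units in ski2-2 dcl2-1, against 32.9, 52.5, 46.7 and 49.5 units in ski2-2 (log2 fold -2.41 ± 0.29, SE, adjusted p = 2.61e-14). GOX1 (-1.83 ± 0.20, SE) and GGT1 (AT1G23310, glutamate:glyoxylate aminotransferase; -1.77 ± 0.22, SE) followed, and 6 of the 10 genes that fell belong to photorespiration, as do 10 of the 26 members tested. The gene that rose was CPN60B1, with 11.1, 15.9, 13.5 and 9.20 units in ski2-2 dcl2-1, against 4.11, 8.75, 2.28 and 1.21 units in ski2-2. That call was lost without ski2-2 library D or ski2-2 dcl2-1 library B, and scaling to microRNA loci gave 18 falls and 0 rises.

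The difference between the backgrounds, tested by an interaction term chosen after the values were seen, passed for 10 of 26 members. In all 10 the log2 change upon loss of DCL2 was higher in the ein5-1 background, as in 1.26% of 12739 genes. HPR1 changed by -0.47 in log2 in the ein5-1 background and by -2.41 in the ski2-2 background, a difference of 1.94 ± 0.38 (SE, adjusted p = 0.00049). Before the loss of DCL2, HPR1 stood at 19.8, 15.3, 21.5 and 20.0 units in ein5-1 libraries and at 32.9 to 52.5 units in ski2-2 libraries. The evening clock genes summed to 12.99 units in ein5-1 dcl2-1 and 4.78 units in ein5-1, and to 8.68 units in ski2-2 dcl2-1 and 2.74 units in ski2-2. The morning genes summed to 6.15, 18.6, 1.56 and 22.4 units in the same order. Of the 6 evening genes, 3 were at 0 units in ski2-2 and 1 in ski2-2 dcl2-1. GRP7 had 119 units in ein5-1 dcl2-1 and 68.8 units in ein5-1, and 55.6 units in ski2-2 dcl2-1 and 3.92 units in ski2-2. Their part in these differences was not tested.

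Adding an ago1 allele to the double mutants again moved the members. In ein5-1 dcl4-2 ago1-45 against ein5-1 dcl4-2, 26 of 34 members rose (3.36% of 18183 genes) and 2 fell (22.3% of those genes), with a median log2 fold of 1.499 against -0.66 for all genes tested. RBCS3B had 330, 334, 361 and 366 units in ein5-1 dcl4-2 ago1-45, against 44.6, 44.7, 38.1 and 51.6 units in ein5-1 dcl4-2 (log2 fold 2.94 ± 0.13, SE, adjusted p = 3.57e-31). FBP (3.01 ± 0.36, SE) and CA1 (2.84 ± 0.26, SE) had the other large rises. CAT2 and GLYK fell, by 0.78 ± 0.21 and 1.06 ± 0.40 on the log2 scale (SE), but with quantile normalization or scaling to microRNA loci 0 members fell. In ein5-1 dcl4-2 ago1-27 against ein5-1 dcl4-2, 14 of 34 members rose (3.01% of 18125 genes) and 1, CAT2, fell (17.4% of those genes), while scaling to microRNA loci gave 8 rises and 5 falls and quantile normalization 24 rises and 1 fall. CA1 had 64.8, 92.8, 76.7 and 74.0 units in ein5-1 dcl4-2 ago1-27, against 16.4, 9.57, 5.45 and 18.2 units in ein5-1 dcl4-2.

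In the ski2-2 line the 2 alleles gave different counts. In ski2-2 dcl4-2 ago1-45 against ski2-2 dcl4-2, 24 of 31 members rose (6.86% of 13333 genes) and 2, CAT2 and FBA1, fell (14.3% of those genes); 0 fell with quantile normalization or scaling to microRNA loci. CA1 had 78.0, 99.4, 130 and 88.1 units in ski2-2 dcl4-2 ago1-45, against 7.77, 12.5, 7.30 and 9.48 units in ski2-2 dcl4-2, and CA2 had 28.1, 30.6, 32.0 and 31.4 units against 5.55, 8.35, 2.92 and 0 units. In ski2-2 dcl4-2 ago1-27 against ski2-2 dcl4-2, 6 of 31 members fell (8.84% of 11951 genes) and 1, CA1, rose (5% of those genes), against 16 falls and 0 rises after scaling to microRNA loci. CA1 had 29.1, 21.2 and 37.0 units in ski2-2 dcl4-2 ago1-27, above each ski2-2 dcl4-2 library. FBA1 fell by 1.67 ± 0.27 on the log2 scale (SE), with 12.9, 10.8 and 25.1 units in ski2-2 dcl4-2 ago1-27, against 46.6, 48.7, 55.5 and 52.2 units in ski2-2 dcl4-2. The 2 alleles were not tested against each other here. Evening clock genes summed to 36.5 units in ski2-2 dcl4-2 ago1-45 and 3.76 units in ski2-2 dcl4-2 ago1-27, against 11.1 units in ski2-2 dcl4-2. The morning genes summed to 0, 0.761 and 15.04 units in the same order. Of the 6 evening genes, 3 were at 0 units in ski2-2 dcl4-2 ago1-27. The part of the clock genes was not tested.

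CAT2 departs from the other members in several of these comparisons, and its values are set here beside those of CAT3, a related catalase gene that is not a member. CAT2 had 326 units in ski2-2 dcl4-2 dcl2-1, 170 units in ski2-2 and 76.7 units in ein5-1, where CAT3 had 57.9, 29.8 and 14.7 units. In dcl2-1, ski2-2 dcl4-2 ago1-45 and ein5-1 dcl4-2 dcl2-1, CAT2 had 8.68, 15.7 and 20.3 units, and CAT3 had 144, 179 and 153 units. Col-0 had 88.9 units of CAT2 and 60.3 units of CAT3. In ein5-1 both genes were thus below Col-0, in ski2-2 dcl4-2 dcl2-1 CAT3 was near Col-0 while CAT2 was well above it, and in ski2-2 dcl4-2 ago1-27 CAT2 had 11.8 units and CAT3 75.6 units. GRP7 was at 1.56 to 4.13 units in dcl4-2, Col-0, ski2-2 and ski2-2 dcl4-2 dcl2-1 and at 20.2 to 361 units in the other 11 genotypes. These are authors' means, described without a test, and CAT3 and GRP7 were chosen after their values were seen.

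**Figure D5:**
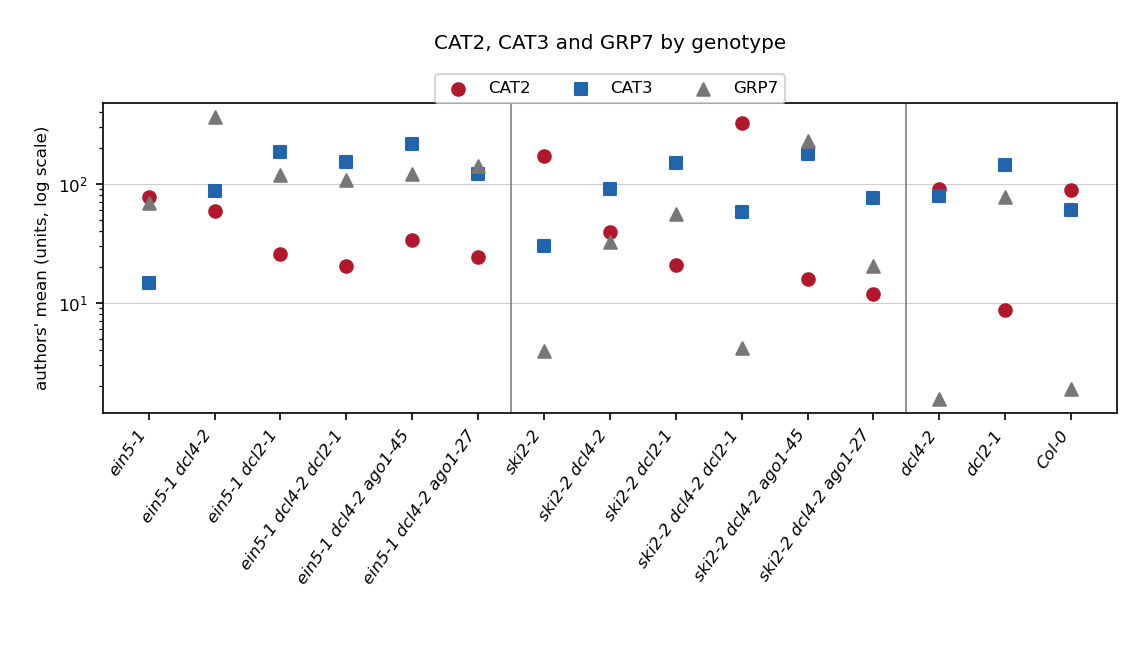
Authors' means in units (log axis) of CAT2, CAT3 and GRP7 in 15 genotypes. CAT2 is above CAT3 in ein5-1, ski2-2, ski2-2 dcl4-2 dcl2-1, dcl4-2 and Col-0, and below it in the other 10 genotypes.

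A further list of 47 genes of the same pathways served as a comparison (other isoforms, plastid-encoded Rubisco, transporters and nitrogen reassimilation). In ein5-1 dcl4-2 against Col-0, 8 of the 45 with a test fell and 5 rose in the authors' deposited table, with a median log2 fold of 0.60. Of all genes tested, 4.44% were lower and 21.1% higher, with a median of 1.05. PLGG1 (glycolate and glycerate transporter, -2.96), FBA5 (cytosolic aldolase, -2.90) and RBCL (-2.83) fell most, and RPI2 (3.40), RPI1 (2.67) and FBA3 (1.87) rose most in the authors' deposited table. RBCL, the chloroplast gene of the Rubisco large subunit, had 642 units in ein5-1 dcl4-2 and 3781 units in Col-0. RPI2 and RPI1, ribose phosphate isomerase isoforms, had 7.78 and 4.72 units in ein5-1 dcl4-2 and 0.407 and 0.439 units in Col-0. In ski2-2 dcl4-2 against Col-0, 6 of 38 fell and 2 rose, with a median of -0.50, against 7.74% lower and 8.13% higher among all genes tested and a median of 0.07. FBA5 (-3.35), PLGG1 (-2.01) and RBCL (-1.56) fell most, and GLU1 (ferredoxin-dependent glutamate synthase, 0.51) and CAT3 (0.48) were those that rose, all by the authors' deposited table. RBCL thus fell in ski2-2 dcl4-2, with 1386 units against 3781 units in Col-0, where RBCS1A rose.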

How the data were processed

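The submitters' processing notes name Bowtie 1.2.2, SAMtools 1.9, DESeq2 and the build TAIR10. The authors' deposited signal is the mean over libraries of 22-nt reads per gene, called TPM per the file headers; its denominator and its treatment of strand and repeated reads are not given in the sources used here. The deposited log2 folds and adjusted p-values are the authors' own comparisons. The design expected values per library, and these were recovered here from the means as whole reads times a step particular to each library, within 0.6 of the last printed digit. This succeeded for 98.8% to 99.95% of genes per genotype. On simulated means of 12000 genes for each of the 15 genotypes it gave 0 wrong values. Their read levels were drawn from genes already recovered, most of which have few reads, so levels as high as the members' were little covered. Libraries carry no replicate numbers. In limma 3.58.1 (R 4.3.3, intensity trend), log2(units + 1) was compared where the mean reached 1 unit, with Benjamini-Hochberg adjustment over all genes, in 20 comparisons and 2 interactions. The p-values set differences between genotypes against the spread between libraries. Named genes are the 5 largest rises and falls per main comparison, the Rubisco genes and the highest in Col-0; others were chosen after their values were seen. Members and lists were chosen with earlier results of these data known. Coordinates and sequences are RefSeq's, TAIR10.1.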

Additional observations from a re-analysis of the deposited data

Results flagged for a closer look

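Among 85 groups of 4 libraries, drawn up with their values known for the members and genotypes considered for the text, 4 hold a library far from the other 3, and chance alone marks about 1 group in 20. Over all 409 groups of 4 libraries recovered for the members, 20 hold such a library. The 4 are TKL1 in ein5-1 (47.4 units in library D), CP12-2 in ski2-2 (25.4 units in library D), CA2 in ski2-2 (29.5 units in library B) and CP12-2 in ski2-2 dcl4-2 (0 units in library D, where 1 read is worth 4.74 units).

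Members whose change upon loss of DCL4 differed between the ein5-1 and ski2-2 backgrounds by limma's interaction test had these differences in log2 (ein5-1 minus ski2-2 background): CP12-2 3.16, CPN60A1 2.34, CA2 2.31, RPE 2.05, PGK1 1.93, GGT1 1.76, TKL1 1.57, AGT1 1.266 and GOX1 1.03. For loss of DCL2 with DCL4 present the differences were HPR1 1.94, GGT1 1.70, CP12-2 1.63, RPE 1.59, SHM1 1.52, GOX1 1.47, GOX2 1.23, GAPA-1 1.224, GAPB 1.11 and CA1 1.03.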

How the results depend on the processing

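No paired analysis was possible because the deposited means carry no replicate numbers. For the authors' comparisons, the counts of members in the leading direction stayed within 1.5 times at a log2 fold of at least 1. At that fold RBCS1A no longer counted as higher in ski2-2 dcl4-2 than in Col-0 or dcl4-2. The leading counts also stayed within 1.5 times on centring. Centring kept the authors' calls, however, so in most of these comparisons it could not lower the leading count. With limma on the members that had library values (21 to 27 of 35), the counts of lower members were 18 for ein5-1 dcl4-2 against Col-0, 10 against ein5-1 and 15 against dcl4-2, and 19 for ski2-2 dcl4-2 against dcl4-2, and the counts of higher members were 11 for ein5-1 dcl4-2 dcl2-1 against ein5-1 dcl4-2 and 18 for ski2-2 dcl4-2 dcl2-1 against ski2-2 dcl4-2; fewer members were tested there. TKL1 in ein5-1 dcl4-2 against ein5-1 reversed to -0.028 on centring.

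Scaling to 178 microRNA loci gave 1 lower member in dcl4-2 against Col-0, 6 higher in ein5-1 dcl4-2 dcl2-1 against ein5-1 dcl4-2, 0 higher in ein5-1 dcl2-1 against ein5-1, 18 lower in ski2-2 dcl2-1 against ski2-2, 8 higher in ein5-1 dcl4-2 ago1-27 and 16 lower in ski2-2 dcl4-2 ago1-27 against their double mutants, and 10 lower in ein5-1 against ski2-2. Quantile normalization gave 21 higher in ein5-1 dcl4-2 dcl2-1, 24 higher in ein5-1 dcl4-2 ago1-27, 2 higher in ein5-1 dcl4-2 against ski2-2 dcl4-2 and 5 members in the interaction on loss of DCL4. A pseudocount of 0.1 gave 2 higher in ein5-1 dcl4-2 against ski2-2 dcl4-2. Leaving out 1 library at a time gave 4 to 9 lower members for ein5-1 dcl4-2 against ein5-1 (limma) and 2 to 5 higher for ein5-1 dcl4-2 against ski2-2 dcl4-2. The cause of these moves was not tested.

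One shallow library in each dcl4-2 double mutant limits precision there (1 read was worth 4.74 units in library D of ski2-2 dcl4-2 and 3.03 units in library D of ein5-1 dcl4-2), and low members such as FBP and CP12-2 rest on 0 to 3 reads a library in ein5-1 dcl4-2 (FBP) and ski2-2 dcl4-2 (CP12-2).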
